A study of Mus musculus with 7 samples.

Results

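The genes described here are 40 cytosolic and mitochondrial chaperones, their partners and 2 heat shock factors, chosen by gene symbol out of the 53656 gene rows of the count tables; the rule names families and uses no measured value, but the set was drawn up with earlier results of these data known. All 40 were found, and all 40 were among the 15896 genes that passed the filter on low counts. RNA was sequenced from OT1 cells, CD8 T cells whose transgenic receptor recognises a peptide of ovalbumin, sorted on CD8 and CD45.1, the marker that tells them from host cells, out of tumours of B16-OVA-GP61, a melanoma line that carries ovalbumin and a viral epitope, GP61. In the first group, 3 libraries, the tumours also held SMARTA cells, CD4 T cells whose transgenic receptor recognises GP61. In the second group, 4 libraries, there were no SMARTA cells, and both groups share the OT1 cells, the tumour line and the sort. The labels give no genotype or age of the host mice, no time of harvest and no number of animals, so p-values measure the spread between these libraries, which may in part be technical. The question put by the series is what CD4 T cells do to the state of tumour-specific CD8 T cells.

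Chaperones hold newly made or damaged proteins in a foldable state. HSP70 proteins, driven by J-domain partners, bind short hydrophobic stretches and pass clients on to HSP90 or, with prefoldin, to the ring-shaped chaperonin CCT, which folds actin and tubulin; a separate set built around HSP60 works in the mitochondrial matrix. Resting T cells keep a low level of protein synthesis, and activated T cells that grow and divide are known for raised chaperone and ribosome production.

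Library totals were 49438357, 42680170 and 38092722 counts with SMARTA, against 47382620, 41341343, 48572380 and 46310426 counts with no SMARTA, in replicate order. Levels are given as CPM, counts relative to the size of the library: for single genes the library size carries the TMM factor that evens out composition, and for sums over a list it is the plain total. A count of 0 allows a level of up to 0.0607 to 0.0788 CPM (3 counts of the total), for counting error only. CD8 T cell markers summed to 7956 to 9083 CPM with SMARTA and 6898 to 8626 CPM with no SMARTA, and Cd4 itself had 2.05 to 8.09 CPM with SMARTA and 0.659 to 7.31 CPM with no SMARTA. Replicate 1 with SMARTA stood apart by 4829 CPM of erythroid markers, against 9.72 and 214 CPM in the other SMARTA libraries and 36.7 to 223 CPM with no SMARTA. Replicate 2 with no SMARTA stood apart by 67.5 CPM of melanoma markers, where the other 3 of its group had 6.91 to 16.9 CPM and the SMARTA libraries 6.68 to 9.24 CPM. Calls that change without these libraries are given with and without them, and fold changes that move are listed after the families. The libraries are bulk RNA, in which fewer cells of a type and less RNA per cell cannot be told apart.

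Over the whole set, chaperone transcripts took 0.689% to 0.898% of all counts with SMARTA and 1.03% to 1.23% with no SMARTA, without overlap. On TMM-scaled library sizes, the scaling of the test, the groups overlapped: the 40 members summed to 7221, 8851 and 10053 CPM with SMARTA, against 11828, 9926, 10185 and 11939 CPM with no SMARTA. Of the 40 members, 28 were negative and 12 positive in log2 fold change (with over no SMARTA), with a median of -0.34, where the median of all genes tested was -0.00 and 50.2% of them were negative. By edgeR's quasi-likelihood test with Benjamini-Hochberg adjustment over all genes, 2 members passed an adjusted p of 0.05, both lower with SMARTA; 1.63% of all genes tested were called lower. No member was called higher, against 1.52% of all genes; at an unadjusted p under 0.05, 2 members were higher and 11 lower, beside 9.18% and 9.37% of all genes, and DESeq2 called 1 member higher and 10 lower at its adjusted p, beside 5.18% and 5.80% of the genes it tested. In 11 members every SMARTA library lay below every library with no SMARTA, and in 1 member every SMARTA library lay above; over all genes these shares were 10.5% and 8.73%. Of those 11 members, 7 are subunits of 1 complex, the chaperonin CCT, described next.

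**Figure D1:**
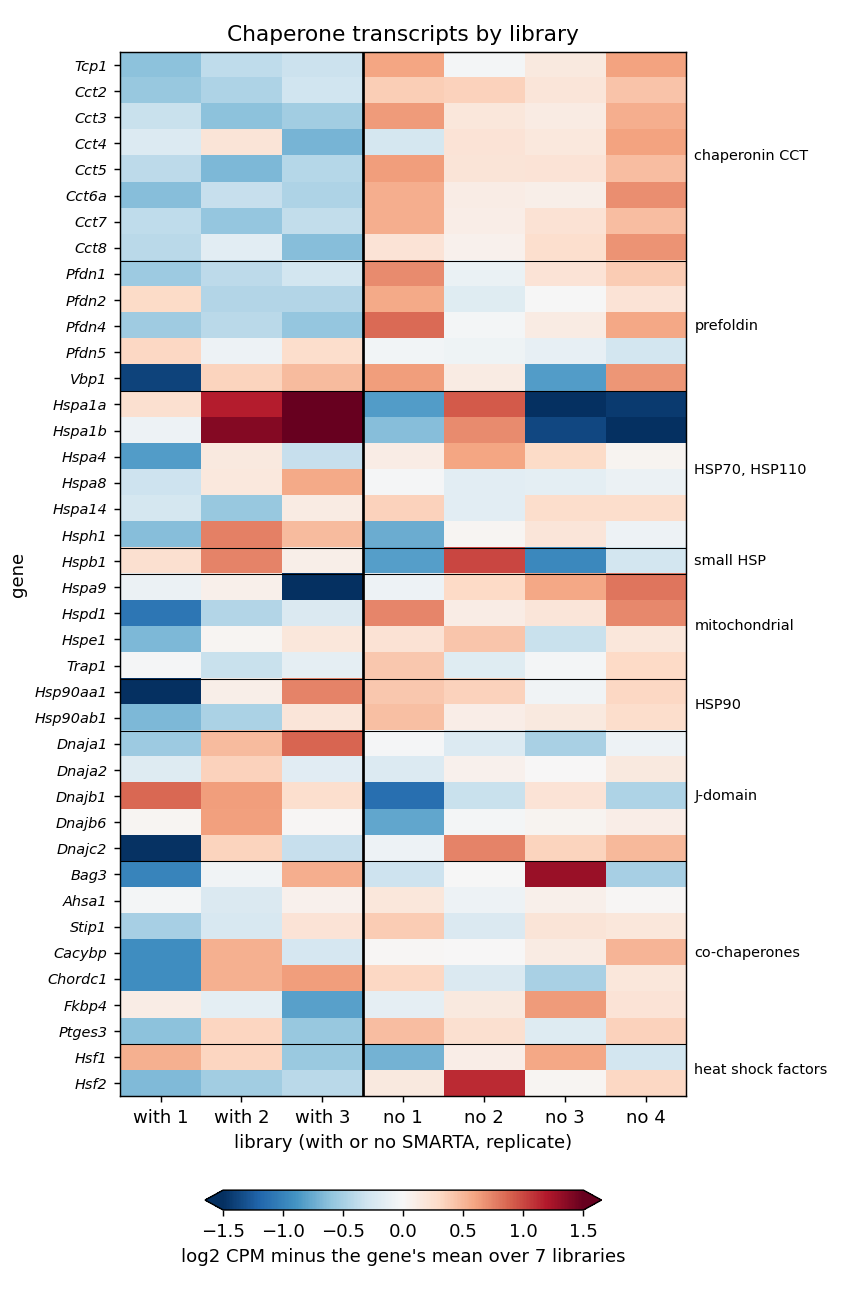
Heat map of the 40 chaperone genes (rows, grouped by family) in the 3 libraries with SMARTA and the 4 libraries with no SMARTA (columns). Colour is log2 CPM minus that gene's mean over the 7 libraries, clipped at 1.5 units either way; apart from Cct4, the chaperonin block is blue on the left and white to red on the right, Hspa1a and Hspa1b are dark red in SMARTA replicates 2 and 3, and SMARTA replicate 1 is pale or blue in many of the heat-inducible genes.

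The cytosolic chaperonin CCT, also called TRiC, is built of 2 stacked rings, each holding 1 copy of every subunit. All 8 subunits measured had a negative log2 fold change, between -0.88 and -0.40 with a median of -0.79, and in 7 of the 8 the groups did not overlap. By edgeR Cct5 and Cct2 were called lower with SMARTA. DESeq2 called 7 subunits lower, all but Cct4, beside 5.80% of the genes it tested. Summed over the 8 subunits, the libraries held 2444, 2527 and 2264 CPM with SMARTA, against 5026, 4238, 3972 and 5199 CPM with no SMARTA, so that the highest SMARTA library was well under the lowest of the other group.

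Cct5, chromosome 15 from 31590800 to 31601804 on the minus strand (GRCm38.p6, here and below), had 453, 372 and 444 CPM with SMARTA, against 919, 682, 688 and 819 CPM with no SMARTA (means 423 ± 44.2, SD, n = 3, and 777 ± 114, SD, n = 4). The log2 fold change was -0.88 ± 0.18 (SE) with an adjusted p of 0.0424. Cct2, chromosome 10 from 117051001 to 117063814 on the minus strand, had 200.04, 216 and 243 CPM with SMARTA, against 385, 379, 339 and 400.0 CPM with no SMARTA. Its log2 fold change was -0.78 ± 0.16 with an adjusted p of 0.0429, and in both genes a wide gap separated the groups. Neither gene shares an exact 50-base stretch of its longest coding transcript with another annotated gene. Inexact copies and the other isoforms of the pair were not searched. How far the counts of this pair depend on the assignment of reads was therefore not tested.

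The other subunits but Cct4 were lower by similar amounts without passing the threshold in edgeR. Cct3 had 353, 289.6 and 310.1 CPM with SMARTA, against 689, 497, 483 and 647 CPM with no SMARTA, a log2 fold change of -0.87 ± 0.19 (adjusted p = 0.0505). Cct7 had 510.1, 445 and 515 CPM with SMARTA, against 968, 709.8, 772 and 918 CPM with no SMARTA, a log2 fold change of -0.78 ± 0.18 (adjusted p = 0.0511). Both genes sat just outside the threshold, with no overlap between groups. Cct6a had 256, 315 and 289 CPM with SMARTA, against 582, 433, 424 and 647 CPM with no SMARTA, a log2 fold change of -0.86 ± 0.21 (adjusted p = 0.0625). Tcp1, the founding subunit, had 244, 288 and 300.2 CPM with SMARTA, against 568, 369, 416 and 573 CPM with no SMARTA, a log2 fold change of -0.79 ± 0.21 (adjusted p = 0.0824). Cct8 had 342, 406 and 291 CPM with SMARTA, against 519, 472, 537 and 721 CPM with no SMARTA, a log2 fold change of -0.70 ± 0.21 (adjusted p = 0.111). In these 3 genes, too, the groups did not overlap, and replicate 4 with no SMARTA was the highest library each time.

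Cct4 was the exception. It had 203, 268 and 144 CPM with SMARTA, against 195, 269, 261 and 355 CPM with no SMARTA, a log2 fold change of -0.40 ± 0.27 (adjusted p = 0.500), and the groups overlapped. Read as a share of the CCT counts within a library, Cct4 made up 7.94%, 10.3% and 5.68% with SMARTA, against 4.03%, 7.07%, 6.66% and 6.98% with no SMARTA. Cct7, with the most counts, made up 17.1% to 20.3% with SMARTA and 18.1% to 20.1% with no SMARTA. Tcp1 made up 9.54% to 11.8% and 9.67% to 11.8%, and Cct8 11.5% to 15.6% and 10.8% to 14.2%. In percentage points the SD of the Cct8 share (2.08 with SMARTA, 1.54 with no SMARTA) was near that of Cct4 (2.31 and 1.44). The mean share of Cct8 was higher, at 13.5% and 12.8% against 7.98% and 6.19%, so relative to its mean Cct4 varied more. Per kilobase of annotated exon, levels ran from 48.8 CPM (Cct4) to 153 CPM (Cct5) with SMARTA and from 64.3 CPM (Cct4) to 281 CPM (Cct5) with no SMARTA. The exon length takes in every annotated isoform, so it can overstate the length of the expressed transcript.

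**Figure D2:**
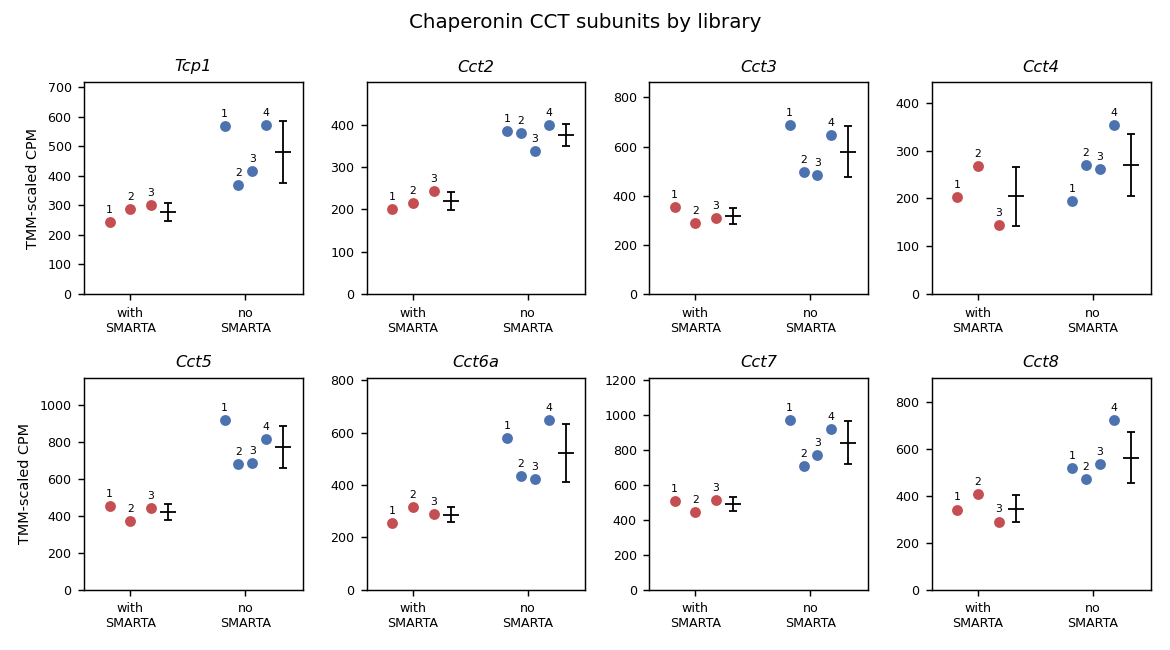
TMM-scaled CPM (vertical axes, from 0) of the 8 CCT subunits in each library, with SMARTA in red and no SMARTA in blue; digits are replicate numbers, and black bars are the mean and SD of 3 and 4 libraries. The groups are apart in every panel but Cct4, where SMARTA replicate 2 (268 CPM) reaches the middle of the other group.

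The chaperonin calls depended on 6 of the 7 libraries. Leaving out replicate 1 with SMARTA kept Cct5 (adjusted p = 0.0341) and Cct2 (0.0467) and added Cct3 (0.0413) and Cct7 (0.0463), where 2.37% of all genes were called lower. Leaving out any other library ended both calls: for Cct5 the adjusted p was 0.140 and 0.0930 when SMARTA replicates 2 and 3 were left out in turn, and 0.0840, 0.0544, 0.0847 and 0.133 without replicates 1, 2, 3 and 4 with no SMARTA. For Cct2 these values were 0.135, 0.0886, 0.0971, 0.0765, 0.0860 and 0.144, in the same order. The size moved little, from -0.95 to -0.79 for Cct5 and from -0.88 to -0.73 for Cct2 over the 7 fits, and all 8 subunits were negative in each of them. With no filter on low counts Cct2 was not called (adjusted p = 0.0556) and Cct3 was (0.0446). Without both libraries that stand apart, Cct5 (adjusted p = 0.0349), Cct3 (0.0359) and Cct7 (0.0404) were called, and Cct2 was not (0.0667); 3.95% of all genes were called lower there.

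Among clients of the chaperonin, 3 of 11 actin and tubulin genes were called lower, all of them tubulins, beside 1.63% of all genes. All 11 were negative with a median of -0.79. In 6 every SMARTA library lay below the rest, beside 10.5% of all genes. In 5 the groups overlapped, among them Actb, the main actin (-0.09 ± 0.21, adjusted p = 0.867). Tubb6, a beta tubulin, averaged 25.1 ± 9.86 CPM with SMARTA and 130.5 ± 36.3 CPM with no SMARTA, a log2 fold change of -2.38 ± 0.34 (adjusted p = 0.0175). Tuba1b, an alpha tubulin, averaged 109.1 ± 19.8 CPM with SMARTA and 315 ± 100.5 CPM with no SMARTA, -1.53 ± 0.30 on the log2 scale (adjusted p = 0.0385). Tubb5 averaged 289.9 ± 55.0 CPM with SMARTA and 624 ± 133 CPM with no SMARTA, -1.11 ± 0.23 on the log2 scale (adjusted p = 0.0424). Of 17 further chaperonin and prefoldin partners tested (18 listed), 1 was called lower and none higher, beside 1.63% and 1.52% of all genes. The called gene, Ruvbl2, is a DNA-dependent ATPase of the R2TP complex that works with HSP90. It averaged 62.0 ± 9.21 CPM with SMARTA and 128 ± 12.5 CPM with no SMARTA, -1.05 ± 0.19 on the log2 scale (adjusted p = 0.0303). The median of these 17 was -0.28.

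Most genes of a cell division list were called lower in the same libraries. Of 20 genes of mitosis and replication, edgeR called 14 lower and 0 higher, beside 1.63% and 1.52% of all genes. The median was -2.16, and in 20 of 20 every SMARTA library lay below the rest, beside 10.5% of all genes. The list summed to 1056, 1589 and 1607 CPM with SMARTA, against 6741, 3483, 5506 and 5218 CPM with no SMARTA. The 4 with the smallest p were Ube2c, which tags mitotic cyclins for destruction (-3.30 ± 0.40, adjusted p = 0.0131), Plk1, a mitotic kinase (-2.76 ± 0.38, adjusted p = 0.0169), Gins1, of the replicative helicase (-2.58 ± 0.39, adjusted p = 0.0189), and Rrm2, of ribonucleotide reductase (-2.55 ± 0.43, adjusted p = 0.0257). Of 10 Myc and ribosome biogenesis genes 1 was called lower, beside 1.63% of all genes. All 10 were negative, with a median of -1.02. In 5 the groups overlapped, and in 5 every SMARTA library lay below the rest, beside 10.5% of all genes. The called gene was Nop56, a nucleolar protein that guides ribosomal RNA modification, with 195 ± 19.1 CPM with SMARTA and 417 ± 59.9 CPM with no SMARTA (-1.10 ± 0.18, adjusted p = 0.0252). The part of cell division in the lower chaperonin level was not tested.

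Prefoldin is a cytosolic complex that captures unfolded actin and tubulin and hands them to CCT. Of its 5 subunits in the set, 4 were negative and 1 positive, none was called by edgeR, and the median was -0.32. DESeq2 called Pfdn4 (adjusted p = 0.0174) and Pfdn1 (0.0477) lower, beside 5.80% of the genes it tested. A further subunit, Pfdn6, counted above among the partners, had 46.8 to 73.1 CPM with SMARTA and 63.4 to 85.1 CPM with no SMARTA (-0.28 ± 0.22, adjusted p = 0.566). Pfdn4 had 15.6, 17.1 and 15.1 CPM with SMARTA, against 40.9, 22.1, 24.6 and 33.9 CPM with no SMARTA, a log2 fold change of -0.93 ± 0.28 (adjusted p = 0.114). The SMARTA libraries agreed closely here while the others spread widely, yet no library with no SMARTA came down to the SMARTA level. Pfdn1 showed the same lack of overlap, with 24.7 to 29.6 CPM with SMARTA and 33.5 to 58.6 CPM with no SMARTA (-0.73 ± 0.25, adjusted p = 0.158). Pfdn2 overlapped, at 35.3 to 58.5 CPM with SMARTA and 42.2 to 70.7 CPM with no SMARTA, as did Vbp1, at 57.1 to 207 CPM and 83.2 to 236 CPM. Pfdn5, also known as a Myc-binding protein, was the positive subunit, with 90.4 to 118 CPM with SMARTA and 78.6 to 92.7 CPM with no SMARTA (0.30 ± 0.18, adjusted p = 0.433).

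In the cytosolic HSP70 family 4 of 6 genes were positive and 2 negative, with a median of 0.36 and no call. Hspa1a and Hspa1b encode the same inducible protein from neighbouring genes of the major histocompatibility region, and heat shock factor 1 drives both through heat shock elements, inverted repeats of GAA. The pair had the largest positive fold changes of the 40 members, and neither was called. The 250 bases before each gene start are printed because the pair cannot be fully told apart: they are identical at 247 positions (98.8%), and 66.3% of the 50-base stretches of the Hspa1a transcript and 62.3% of those of Hspa1b also occur in another gene, mostly each other. Capitals mark the only match to the short heat shock element GAANNTTC or to the other short form TTCNNGAA, found at the same place in both. The sequences are those of RefSeq on GRCm38.p6, minus strand, at chr17:34972157-34972406 for Hspa1a and chr17:34959239-34959488 for Hspa1b.
Hspa1a: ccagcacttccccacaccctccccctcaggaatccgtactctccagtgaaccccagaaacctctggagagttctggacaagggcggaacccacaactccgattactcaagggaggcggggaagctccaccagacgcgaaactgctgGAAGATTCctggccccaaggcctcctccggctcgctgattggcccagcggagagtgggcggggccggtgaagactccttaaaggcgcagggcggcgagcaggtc
Hspa1b: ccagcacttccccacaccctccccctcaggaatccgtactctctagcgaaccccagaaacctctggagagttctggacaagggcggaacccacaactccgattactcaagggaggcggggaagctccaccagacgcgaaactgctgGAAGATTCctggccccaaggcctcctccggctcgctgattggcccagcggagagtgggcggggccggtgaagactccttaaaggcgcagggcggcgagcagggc

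Hspa1a had 26.5, 51.0 and 63.6 CPM with SMARTA, against 12.6, 42.4, 7.70 and 8.29 CPM with no SMARTA. The log2 fold change was 1.41 ± 0.62 with an adjusted p of 0.273. Hspa1b had 28.9, 79.3 and 92.6 CPM with SMARTA, against 19.5, 50.1, 11.8 and 10.1 CPM with no SMARTA, a log2 fold change of 1.55 ± 0.61 (adjusted p = 0.214). In both genes 3 of the 4 libraries with no SMARTA lay under every SMARTA library, and replicate 2 with no SMARTA reached into the SMARTA range. Without that replicate Hspa1a was called (2.30 on the log2 scale, adjusted p = 0.0368) and Hspa1b was not (2.28, adjusted p = 0.0583), beside 1.01% of all genes called higher. Without both libraries that stand apart, the pair was called higher, at 2.59 (adjusted p = 0.00613) and 2.64 (adjusted p = 0.00758), beside 3.74% of all genes. That replicate also held the most melanoma marker RNA, and the part of this in its HSP70 level was not tested.

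Hspa8, the constitutive HSC70, is the most abundant HSP70 of the set at 418 CPM per kilobase with SMARTA and 343 CPM per kilobase with no SMARTA. It had 1277, 1769 and 2353 CPM with SMARTA, against 1564, 1421, 1428 and 1491 CPM with no SMARTA (0.29 ± 0.21, adjusted p = 0.533). The libraries with no SMARTA were tightly grouped and the SMARTA libraries lay on both sides of them. Of the 50-base stretches of its transcript 74.8% recur in other genes. The counting was by read pair and left out pairs that matched several places. Because a single stretch is not a pair, the share of pairs left out was not measured. Within a library, counts of Hspa1a plus Hspa1b were 0.0434, 0.0736 and 0.0663 of those of Hspa8 with SMARTA, against 0.0205, 0.0651, 0.0137 and 0.0123 with no SMARTA, again with replicate 2 with no SMARTA among the SMARTA values. Hsph1 and Hspa4 are HSP110-type exchange factors that recharge HSP70. Hsph1 ran from 116 to 304 CPM with SMARTA and from 107 to 203 CPM with no SMARTA (0.43 ± 0.34, adjusted p = 0.574), and Hspa4 from 16.3 to 32.2 CPM and from 29.9 to 44.0 CPM (-0.56 ± 0.29, adjusted p = 0.347). Hspa14, which with Dnajc2 sits at the ribosome exit, had 122 to 195 CPM with SMARTA and 162 to 228 CPM with no SMARTA (-0.40 ± 0.22, adjusted p = 0.382). Hspb1, the small heat shock protein HSP25, was barely detected, at 0.382 to 0.602 CPM with SMARTA and 0.183 to 0.718 CPM with no SMARTA.

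**Figure D3:**
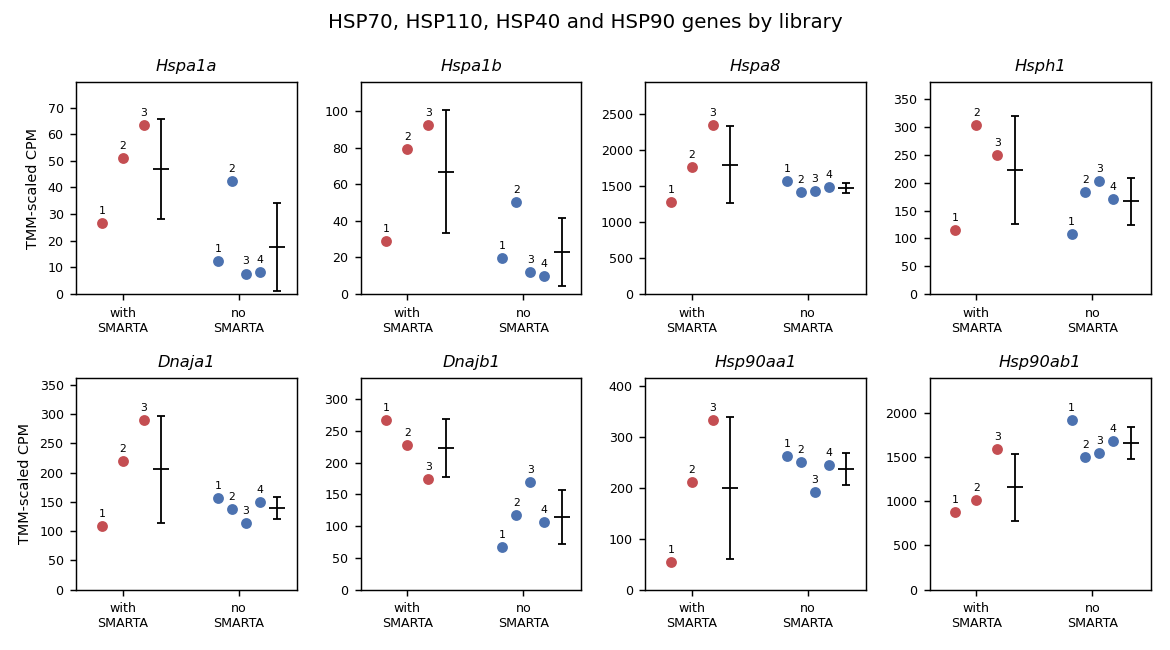
TMM-scaled CPM (vertical axes, from 0) of 8 HSP70, HSP110, HSP40 and HSP90 genes in each library, with SMARTA in red and no SMARTA in blue; digits are replicate numbers, and black bars are the mean and SD. Replicate 2 with no SMARTA is the high blue point of Hspa1a (42.4 CPM) and Hspa1b (50.1 CPM), SMARTA replicate 1 is the lowest red point of every panel but Dnajb1, and Dnajb1 is the panel in which all red points lie above all blue ones.

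Mitochondrial chaperones were negative in 4 of 4, with a median of -0.55, and none was called by edgeR. DESeq2 called Hspd1 lower (adjusted p = 0.0135), beside 5.80% of the genes it tested. Their sum was 463, 542 and 409.7 CPM with SMARTA, against 849.5, 773, 753 and 983 CPM with no SMARTA, without overlap. Hspd1, the HSP60 chaperonin of the matrix, had 95.04, 149 and 174 CPM with SMARTA, against 337, 218, 229.5 and 332 CPM with no SMARTA, a log2 fold change of -1.001 ± 0.27 (adjusted p = 0.0863), the most negative of the 40. Hspe1, the HSP10 lid of the same chaperonin, had 39.9 to 71.4 CPM with SMARTA and 50.4 to 84.5 CPM with no SMARTA (-0.25 ± 0.27, adjusted p = 0.688). The ratio of Hspd1 to Hspe1 counts within a library was 2.38, 2.30 and 2.44 with SMARTA, against 4.56, 2.58, 4.55 and 4.67 with no SMARTA. The SMARTA ratios lay close together, and replicate 2 with no SMARTA was near them while its 3 group mates were well above.

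Hspd1 (chromosome 1 from 55077835 to 55088243, minus strand) and Hspe1 (from 55088132 to 55091307, plus strand) lie head to head. Their annotated exons overlap by 112 bases, and read pairs lying wholly there count for neither gene. Each also has 44.8% of its 50-base stretches in other genes, most of them processed copies. A stretch before the Hspe1 start, inside the annotated span of Hspd1, is printed because it lies upstream of both Hspe1 and an internal start of Hspd1. It holds 3-unit heat shock elements (GAANNTTCNNGAA, searched on both strands, with 2 overlapping matches in capitals), at positions -89 to -72 from the Hspe1 start, chr1:55088054-55088081, RefSeq sequence of GRCm38.p6, plus strand.
Hspe1: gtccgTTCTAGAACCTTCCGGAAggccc
Read on the other strand, it lies at positions -144 to -127 from an internal annotated Hspd1 start; the window at the outer Hspd1 start has 0 matches.
Hspd1: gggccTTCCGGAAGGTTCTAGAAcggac

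Hspa9, mortalin, the HSP70 that pulls proteins through the inner membrane, had 194, 217 and 68.4 CPM with SMARTA, against 195, 252, 307 and 360.3 CPM with no SMARTA (-0.80 ± 0.39, adjusted p = 0.322). Replicate 3 with SMARTA was far below the rest, and without it the log2 fold change was -0.46. Trap1, the mitochondrial HSP90, had 126 to 157 CPM with SMARTA and 140.2 to 209.9 CPM with no SMARTA (-0.30 ± 0.20, adjusted p = 0.494). Among 15 other genes of mitochondrial protein quality control 12 were negative, the median was -0.25 and none was called by edgeR. At an unadjusted p under 0.05, 2 were lower, beside 9.37% of all genes. The smallest p was that of Lonp1, a matrix protease, at 8.92 ± 2.35 CPM with SMARTA and 22.5 ± 6.11 CPM with no SMARTA (-1.33 ± 0.34, adjusted p = 0.0699).

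**Figure D4:**
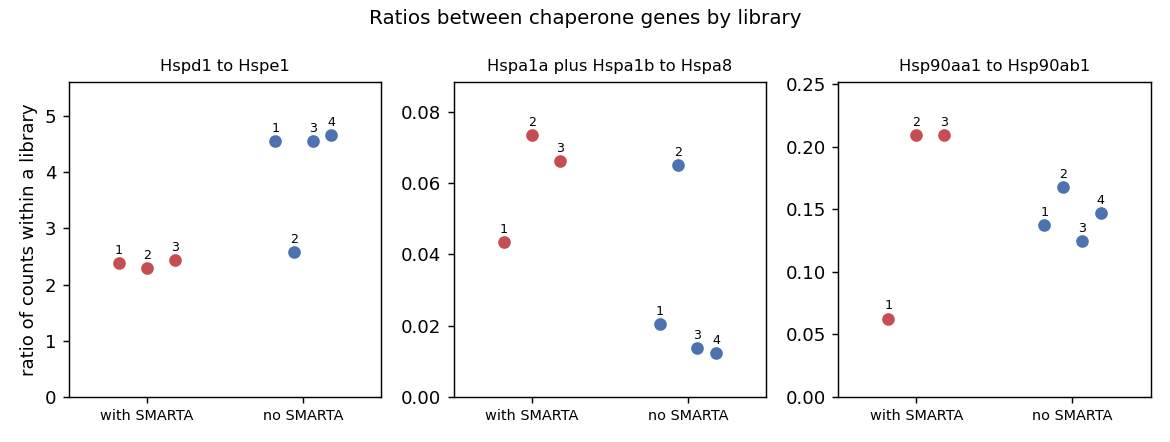
Ratios of counts between chaperone genes within each library (vertical axes, from 0), which do not depend on how libraries are scaled; SMARTA libraries are red, libraries with no SMARTA blue, and digits are replicate numbers. Hspd1 to Hspe1 is 2.30 to 2.44 in the SMARTA libraries and 4.55 to 4.67 in 3 of the others, and in 2 panels replicate 2 with no SMARTA sits with the SMARTA values.

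HSP90 holds kinases and receptors near their native state. Both cytosolic genes had negative fold changes and neither was called. Hsp90ab1, the constitutive form, had 875, 1009 and 1588 CPM with SMARTA, against 1911, 1502, 1544 and 1676 CPM with no SMARTA (-0.52 ± 0.23, adjusted p = 0.271), and replicate 3 with SMARTA overlapped the other group. Hsp90aa1, the stress-inducible form, had 54.8, 211 and 333 CPM with SMARTA, against 263, 252, 192 and 246 CPM with no SMARTA (-0.25 ± 0.48, adjusted p = 0.839). Its SMARTA libraries spanned the whole range of the other group, and without replicate 1 with SMARTA the fold change turned to 0.17. The ratio of Hsp90aa1 to Hsp90ab1 counts was 0.0626, 0.209 and 0.209 with SMARTA, against 0.137, 0.168, 0.124 and 0.147 with no SMARTA. Replicate 1 with SMARTA thus had the lowest and replicates 2 and 3 the highest share of the inducible form; the first of these is the library with the most erythroid RNA, whose part was not tested. Of 50-base stretches of Hsp90aa1 58.5% recur in other genes.

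J-domain proteins (HSP40) bring clients to HSP70 and trigger its ATPase. Of the 5 measured, 4 were positive, with a median of 0.38, and edgeR called none. Dnajb1, the main stress-inducible HSP40, had 266, 228 and 175 CPM with SMARTA, against 67.0, 117, 169 and 106 CPM with no SMARTA (0.96 ± 0.30, adjusted p = 0.135). It was the only one of the 40 with every SMARTA library above every other library, by a narrow margin between SMARTA replicate 3 and replicate 3 with no SMARTA, and the only one that DESeq2 called higher (adjusted p = 0.0381). Dnaja1, which serves HSC70 in the cytosol, had 108 to 289 CPM with SMARTA and 113 to 156 CPM with no SMARTA (0.56 ± 0.31, adjusted p = 0.383). Dnajb6, which suppresses aggregation, had 77.2 to 117 CPM with SMARTA and 44.6 to 81.7 CPM with no SMARTA (0.38 ± 0.27, adjusted p = 0.517). Dnaja2 averaged 121 ± 27.0 CPM with SMARTA and 120.0 ± 12.4 CPM with no SMARTA (0.01 ± 0.20, adjusted p = 0.984), and its sign turned under several settings. Dnajc2, the ribosome-bound partner of Hspa14, had 6.83 to 24.1 CPM with SMARTA and 18.1 to 31.9 CPM with no SMARTA (-0.72 ± 0.42, adjusted p = 0.418). Among 31 other J-domain genes 16 were positive and 15 negative, the median was 0.00, and none was called by edgeR. At an unadjusted p under 0.05, 1 was higher and 1 lower, beside 9.18% and 9.37% of all genes. The smallest p was that of Dnajc14 (261 ± 42.4 CPM with SMARTA and 182 ± 32.2 CPM with no SMARTA, adjusted p = 0.215).

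The 7 co-chaperones overlapped between groups in every case, 6 were negative and none was called, with adjusted p of 0.428 or more. Stip1, which links HSP70 to HSP90, had 281 to 459.8 CPM with SMARTA and 341 to 519 CPM with no SMARTA, and Ahsa1, which speeds the HSP90 ATPase, had 203 to 246 CPM and 222 to 265 CPM. Fkbp4 and Ptges3 (p23), partners of HSP90 on steroid receptors, had log2 fold changes of -0.48 ± 0.28 and -0.46 ± 0.31, Cacybp, a binding partner of calcyclin, -0.27 ± 0.33, and Chordc1, an HSP90-binding protein, 0.25 ± 0.37. Bag3, an exchange factor that sends HSP70 clients to autophagy, had 1.95 to 5.64 CPM with SMARTA and 2.74 to 9.49 CPM with no SMARTA (-0.35 ± 0.56, adjusted p = 0.805). Among 26 other co-chaperones of HSP70 and HSP90 the median was 0.02, and none was called by edgeR. At an unadjusted p under 0.05, 3 were lower, beside 9.37% of all genes. Nudcd2 had the smallest p (-0.82 ± 0.23, adjusted p = 0.0952). Of 9 other HSP70 and small heat shock genes tested (13 listed) none was called either. Only 1 was lower at an unadjusted p under 0.05, beside 9.37% of all genes. That gene was Hspa2 (2.20 ± 0.791 CPM with SMARTA and 5.05 ± 1.81 CPM with no SMARTA, adjusted p = 0.204).

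Heat shock factors are the transcription factors that switch inducible chaperones on. Hsf1, the main factor of the heat shock response, had 85.6, 74.4 and 40.4 CPM with SMARTA, against 36.2, 63.5, 88.9 and 49.2 CPM with no SMARTA (0.17 ± 0.36, adjusted p = 0.858), with full overlap. Hsf2, which can pair with Hsf1 at the same elements, had 2.61, 2.87 and 3.12 CPM with SMARTA, against 4.56, 9.01, 4.21 and 5.10 CPM with no SMARTA (-0.997 ± 0.38, adjusted p = 0.207). The SMARTA libraries were all lower, and replicate 2 with no SMARTA was the highest library. Of 4 genes tested from a list of other heat shock factors and nascent-chain partners (5 listed) none was called by edgeR. Only 1 was lower at an unadjusted p under 0.05, beside 9.37% of all genes. That gene was Naca, of the nascent polypeptide-associated complex (-0.53 ± 0.23, adjusted p = 0.256).

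Sorting and tissue dissociation can themselves switch on stress genes. Of 15 genes known for this 8 were positive and 7 negative, with a median of 0.04. At an unadjusted p under 0.05 in edgeR, 3 were higher and 1 lower, beside 9.18% and 9.37% of all genes. The 15 genes summed to 1941, 1502 and 1983 CPM with SMARTA, against 1188, 2020.3, 2588 and 1850.1 CPM with no SMARTA, and the groups overlapped. A sum can hide single genes that move opposite ways.

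Without both libraries that stand apart, 20 of the 40 members turned in sign or moved by more than 1.5 times, and of these 20 edgeR called Hspa1a and Hspa1b. Positive values grew to 0.47 for Hspa8, 0.79 for Hsph1, 0.87 for Dnaja1, 0.54 for Chordc1, 0.13 for Dnaja2 and 1.11 for Hspb1. Negative values shrank to -0.23 for Hspa4, -0.23 for Dnajc2, -0.13 for Bag3, -0.034 for Cacybp, -0.29 for Ptges3 and -0.625 for Hsf2, and grew to -0.71 for Pfdn2 and -0.47 for Trap1. The sign turned for Vbp1 (0.11), Hspe1 (0.067), Hsp90aa1 (0.22) and Hsf1 (-0.014).

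**Figure D5:**
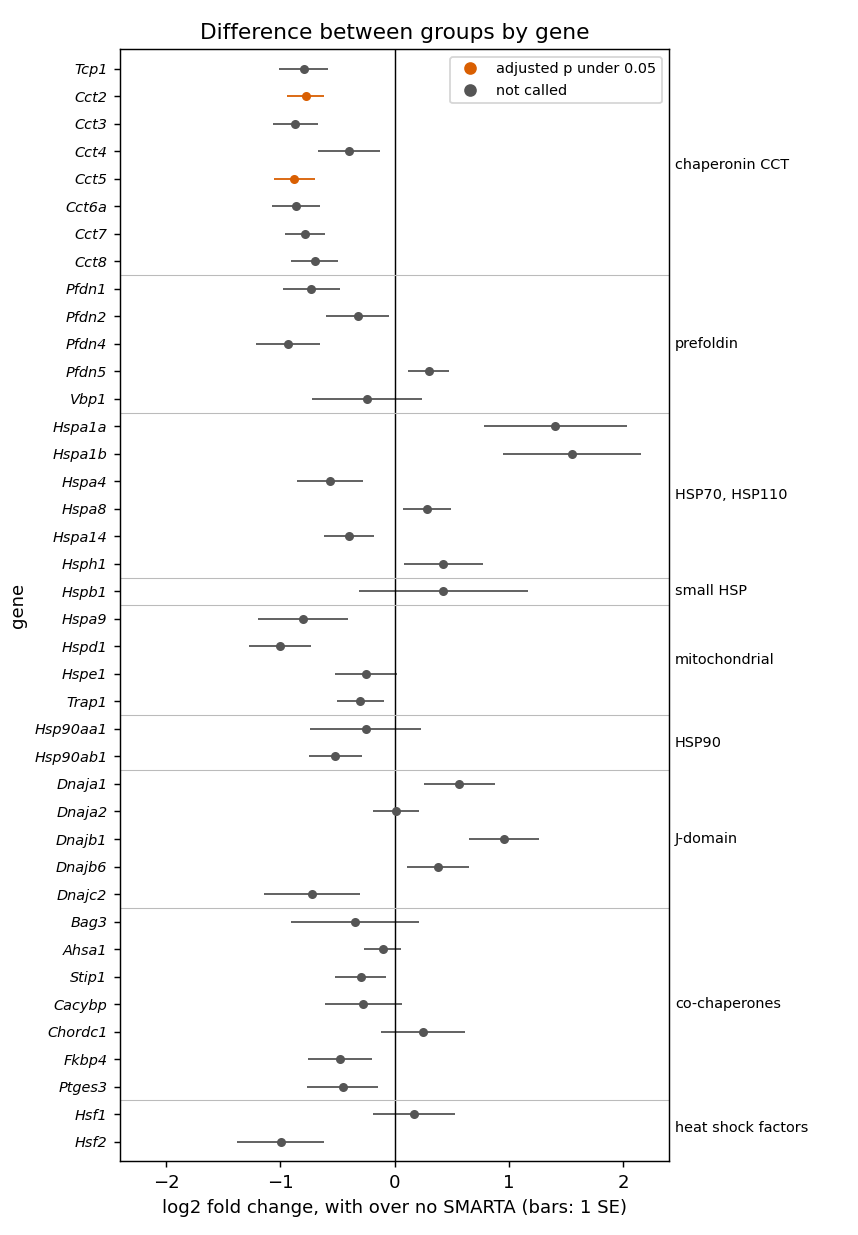
Log2 fold change, with over no SMARTA (horizontal axis; bars are 1 SE from the edgeR fit), of the 40 chaperone genes grouped by family. Orange marks Cct2 and Cct5, the genes with an adjusted p under 0.05; all 8 CCT subunits lie left of 0, and Hspa1a and Hspa1b lie farthest right with the widest bars but for Hspb1.

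What the members share beyond their family was looked for in the 300 bases around each gene start, 250 before and 50 after, from RefSeq on GRCm38.p6; 32 of the 40 members had such a window. The 3-unit heat shock element GAANNTTCNNGAA, on either strand, was present in 5 of 32 members (15.6%) and in 179 of 27025 genes of the table (0.662%). It was found in Hsph1, Hspd1, Hspe1, Dnajb6 and Chordc1. The Hspd1 and Hspe1 matches are the same stretch read on opposite strands, so that stretch is counted for both genes. The 3-unit element was found in 0 of the 7 CCT subunits with a window, which says only that these letters are not in those windows. The shorter form GAANNTTC was present in 12 of 32 members (37.5%) and 9.04% of all genes, TTCNNGAA in 21.9% and 9.60%, the CCAAT box CCAAT in 46.9% and 41.1%, and the TATA box TATAAA in 3.12% and 15.7%; the first 2 forms overlap the 3-unit element. Among the 7 CCT subunits with a window, GAANNTTC was present in 1 (14.3%) and TTCNNGAA in 2 (28.6%). Members with the 3-unit element went both ways, at -1.001 (Hspd1), -0.25 (Hspe1), 0.25 (Chordc1), 0.38 (Dnajb6) and 0.43 (Hsph1) on the log2 scale. Beside the Hspd1 and Hspe1 element above, the matches of the other 3 genes are shown for their arrangement, with the matched units in capitals. Hsph1 lies at chr5:149636283-149636305, minus strand and after the gene start, Dnajb6 at chr5:29735847-29735869 and Chordc1, with 3 overlapping matches across its start, at chr9:18292258-18292290, the last 2 on the plus strand.
Hsph1: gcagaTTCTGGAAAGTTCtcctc
Dnajb6: tccgaGAATCTTCCGGAAcgcta
Chordc1: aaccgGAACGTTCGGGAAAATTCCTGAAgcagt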

How the data were processed

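Raw counts per gene were deposited by the authors, 1 table per library with 53656 gene rows. Per the labels' protocols, sorted cells went into Trizol, 6-15 ng of RNA were amplified over 12 cycles with SMART-seq V4, a kit without strand information, and sequenced as 50-base pairs on a HiSeq instrument. Per the file headers, read pairs were counted by gene name over GENCODE M17 exons without strand, and reads matching several places or genes were left out by default. STAR 2.6.0c, featureCounts 1.6.2 and GRCm38.p6 are named in the submitters' processing notes. Gene lengths, also in the deposited tables, served for CPM per kilobase.

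Libraries were grouped by title. Counts were tested with edgeR 4.0.16 in R 4.3.3: filterByExpr (minimum count 10, minimum total 15), TMM scaling, robust glmQLFit and glmQLFTest on all 7 libraries, two-sided, with no covariate. Fold changes are with over no SMARTA; single genes are in TMM-scaled CPM, summed lists in CPM of library totals. The common dispersion was 0.280. No 2 libraries of a group agreed within sampling noise: chi-square over degrees of freedom was 93.5 to 444. Members and lists were chosen with earlier results of these data known, so no test is given for a list. Values in every library were given for called members, the 10 largest fold changes, the 10 smallest p and 9 fixed genes; Cct4, to complete the CCT subunits, and Pfdn6 and Actb were added after their values were seen, and the ranges of other members likewise follow no such rule. From each other list the called genes were named, at most 4 by smallest p, or the smallest p alone. A called gene of the sorting and dissociation list is not reported here.

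Alternatives were other scalings and filters, DESeq2 1.42.0, limma-voom (limma 3.58.1), a fit without robust estimation, stricter thresholds, leaving out each library, and a block for the replicate number. Leaving out both libraries that stand apart, and the number in the deposited table's name as a block, were chosen after seeing the data. Promoter sequences are those of RefSeq, and shared 50-base stretches were counted in the GENCODE M21 transcripts.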

Additional observations from a re-analysis of the deposited data

Results flagged for a closer look

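In groups of 4 libraries, 61 sets of values were examined for a library far from its group mates, and chance marks about 1 in 20 such groups. Among the libraries with no SMARTA, 5 values stood out. Replicate 2 had 42.4 CPM of Hspa1a, where its group mates had 7.70 to 12.6 CPM. In the same replicate the ratio of Hspa1a plus Hspa1b to Hspa8 was 0.0651, against 0.0123 to 0.0205 in its group mates, and the ratio of Hspd1 to Hspe1 was 2.58, against 4.55 to 4.67. Replicate 3 had 9.49 CPM of Bag3, where the others had 2.74 to 3.85 CPM. Replicate 1 had 4.03% of its CCT counts in Cct4, where the others had 6.66% to 7.07%.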

How the results depend on the processing

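Genes called over all genes tested numbered 500 as reported, of which members gave 0 higher and 2 lower. With a CPM of at least 5 in 3 libraries they numbered 842 (5.23% of genes lower), with 8 members lower; with DESeq2 1741, with 1 member higher and 10 lower; at an adjusted p under 0.01, 7 with 0 members; without both libraries that stand apart 1257, with 2 members higher and 3 lower. Library totals alone gave 7 members lower (398 of all genes tested), limma-voom 4 (270 of all), no filter 2 with Cct3 in place of Cct2, and a log2 fold change of at least 1 gave 0. Leaving out 1 library gave 17 to 907 genes, 0 to 1 members higher and 0 to 4 lower. Titles share replicate numbers between groups. Deviations from the group mean correlated at -0.14, 0.026 and -0.27 between same-numbered libraries, and at -0.086 to 0.25 between differently numbered ones. So few values show no pairing but cannot exclude one, and the labels do not say whether replicates were matched. With the replicate number as a block 0 genes and 0 members were called, and likewise 0 and 0 with the number in the table's name. Library totals moved the median of all genes to -0.16; relative to it the CCT subunits lay at -0.88 to -0.38, and the summed CCT log2 ratio of -0.93 became -0.77 on TMM-scaled library sizes.

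Signs turned for members near 0. Dnaja2 was -0.016 with upper-quartile scaling, -0.14 with library totals, -0.0062 with no filter, -0.071 with the CPM filter, -0.0020 with limma-voom and -0.075 with the table number as a block. Without both libraries that stand apart Vbp1 was 0.11, Hspe1 0.067, Hsp90aa1 0.22 and Hsf1 -0.014, and Hsf1 was -0.037 with the table number as a block. With 1 library left out, Vbp1 ranged from -0.55 to 0.12, Hsp90aa1 from -0.84 to 0.17, Dnaja2 from -0.18 to 0.098, Bag3 from -0.75 to 0.22, Cacybp from -0.73 to 0.0089, Chordc1 from -0.0052 to 0.58 and Hsf1 from -0.048 to 0.43. The causes were not tested. Groups of 3 and 4 libraries limit what can be called, and Hspb1 rests on few counts.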

Other observations

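Apart from the erythroid list, which reached 4829 CPM in replicate 1 with SMARTA, the marker sum of no other cell type below passed 196 CPM in any library. With SMARTA the B cell list summed to 11.2 to 58.9 CPM and with no SMARTA to 4.98 to 32.4 CPM. Macrophage and monocyte markers summed to 33.5 to 196 CPM with SMARTA and 82.2 to 182 CPM with no SMARTA, and neutrophil markers to 0.820 to 2.12 CPM and 2.72 to 29.7 CPM. Dendritic cell markers summed to 15.1 to 30.9 CPM with SMARTA and 13.1 to 30.3 CPM with no SMARTA, and NK cell markers to 13.6 to 101 CPM and 23.2 to 85.4 CPM. Fibroblast and endothelial markers (143 to 191 CPM with SMARTA and 88.8 to 125 CPM with no SMARTA) and the CD4 T cell list (120.5 to 140.3 CPM and 39.7 to 96.2 CPM) did not overlap between groups. Pecam1 made up most of the first of these, with 137 to 186 CPM with SMARTA and 82.5 to 116 CPM with no SMARTA, and the other genes of that list had 0 to 12.4 CPM. The CD4 list gap came from Cd40lg (88.1 to 101 CPM with SMARTA and 26.2 to 68.1 CPM with no SMARTA) and Zbtb7b (23.1 to 43.3 CPM and 7.96 to 22.7 CPM), while Cd4 overlapped and Foxp3 had 0 to 1.84 CPM with SMARTA and 0.638 to 12.0 CPM with no SMARTA. The part of these markers in the chaperone levels was not tested.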
